A study of Mus musculus with 23 samples.

Results

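The ubiquitin-specific proteases (Usp genes) were followed through mouse spermatogenesis on 23 Affymetrix arrays. Members were taken by name, as every gene whose symbol is Usp followed by a number and at most 1 letter. No measured difference entered this rule, although it was chosen with earlier results of these data known. The array held 48 such genes, and 44 had a log2 intensity of at least 4 in at least 2 of the 20 wild-type arrays, among 13087 of 18193 genes of the array that did so. The 4 that did not were Usp13, Usp18, Usp26 and Usp29. Where a gene had several probe sets, the one with the highest mean over the wild-type arrays stands for it, and levels of different genes are not compared, since each probe set has its own brightness.

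Wild-type germ cells came from C57BL/6J x DBA/2J F1 males of 10 to 16 weeks, were stained with Hoechst 33342, a DNA dye, and were sorted by flow cytometry. They covered spermatogonia (4 arrays), pre-leptotene spermatocytes (3), leptotene/zygotene spermatocytes (3), early pachytene (1), mid-pachytene (2), late pachytene (1) and diplotene cells (2), and round spermatids (4). Spo11-/- males of the same age, which lack the enzyme that makes the DNA breaks of meiotic recombination, gave 1 array each of spermatogonia, pre-leptotene and leptotene/zygotene cells. Their cells were collected 2 times, from 4 and from 3 mice, and combined. The labels give no strain for the Spo11-/- mice, so genotype and strain cannot be told apart, and they do not say if the same mice gave all 3 arrays.

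Ubiquitin is a small protein that cells attach to other proteins as a mark, and chains of it can send a protein to the proteasome for breakdown. Ubiquitin-specific proteases are cysteine proteases that take the mark off again, each acting on its own set of targets, such as histones, receptors on endosomes or checkpoint proteins. In male germ cells ubiquitin is known for marking histone H2A on the silenced X and Y chromosomes of pachytene spermatocytes, and for its part in replacing histones in spermatids.

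The labelled stages were set against marker genes. The median log2 intensity of 9 spermatogonial markers was 10.60 to 12.02 in the spermatogonia, pre-leptotene and leptotene/zygotene arrays and 3.90 to 5.58 in round spermatids. It was still 9.73 and 9.38 in the mid-pachytene arrays and 5.01 and 5.34 in diplotene. The 10 meiotic prophase markers did not separate the stages, with a median of 9.24 to 10.48 in all wild-type arrays. The 12 spermatid markers, with a median of 12.72 to 13.45 in round spermatids, also stood at 12.15, 13.19, 10.90 and 9.72 in spermatogonia arrays 1 to 4, and at 8.24 to 10.05 in the pre-leptotene and leptotene/zygotene arrays. Wild-type fractions labelled as early so held RNA of spermatid markers, and whether it came from spermatids or from the labelled cells was not tested. All 12 were at or above log2 4 in each of these wild-type arrays. In the Spo11-/- arrays the same markers had a median of 2.98 to 3.16, with 1 or 2 of the 12 at or above log2 4. The 13 macrophage and leukocyte markers had a median of 5.02 to 7.44 in the wild-type spermatogonia arrays. They stood at 5.69 in pre-leptotene array 1 and 7.51 in the Spo11-/- pre-leptotene array, against 2.63 to 2.99 in all other arrays. The median of 9 peritubular and stromal markers was highest in wild-type spermatogonia array 4 (9.17) and the Spo11-/- pre-leptotene array (7.59). Spo11 itself read 7.42, 8.73 and 8.95 in wild-type leptotene/zygotene arrays and 5.21 in the Spo11-/- array, but in the earlier fractions, at 4.60 to 7.03 in wild type and 4.30 and 4.80 in Spo11-/-, the groups lay close. Its fitted difference was -1.97 ± 0.59 (SE, limma adjusted p = 0.0406). Whether its probe set lies in the deleted part is not known.

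**Figure D1:**
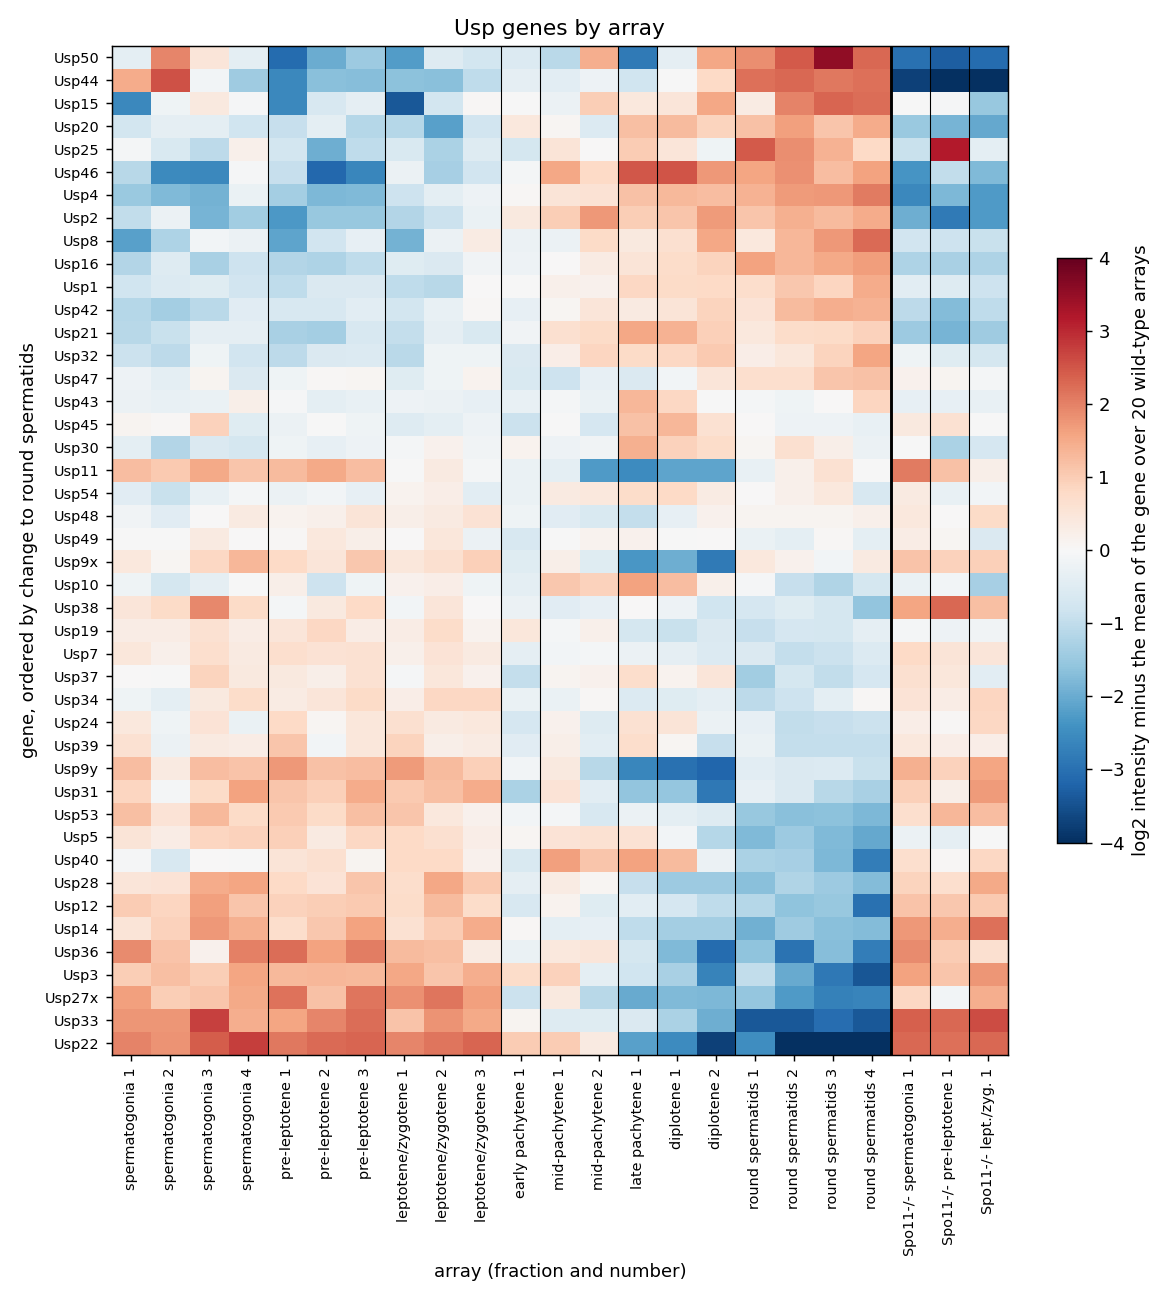
Log2 intensity of the 44 Usp genes in each of the 23 arrays, as the difference from the gene's mean over the 20 wild-type arrays (red above, blue below). Rows are ordered by the change from leptotene/zygotene to round spermatids, from Usp50 (3.72) at the top to Usp22 (-6.16) at the bottom, and the thick line separates the 3 Spo11-/- arrays.

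Across the 6 wild-type fractions with more than 1 array, the Usp transcripts differed in where they were highest. The pre-leptotene mean was the highest of the 6 for 12 members (27.3%, against 20.4% of all genes) and the round spermatid mean for 11 (25.0%, against 28.1%). Round spermatids were the lowest for 18 of the 44 members (40.9%, against 31.1% of all genes). The range between the highest and the lowest fraction mean had a median of 2.64 on the log2 scale over the members and 2.35 over all genes. It stayed below 1 for 4 members, Usp43, Usp48, Usp49 and Usp54.

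A change was counted where the Benjamini-Hochberg adjusted p of limma over all genes was below 0.05 and the log2 change at least 1. The fitted values below are log2 changes ± SE. Successive comparisons share arrays, so their calls are not independent of each other. Since all arrays are of cell populations, a fall can mean fewer cells that hold a transcript or less of it per cell, and these cannot be told apart.

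The first steps moved few Usp genes. From spermatogonia to pre-leptotene cells 0 of 44 members rose, with 0.0611% of all genes rising, and 1 fell, with 1.64% of all genes falling. The member that fell was Usp44, which removes ubiquitin from histone H2B and is known from the mitotic checkpoint. It read 9.70, 10.75, 8.11 and 6.78 in the 4 spermatogonia arrays and 5.63, 6.53 and 6.49 in the 3 pre-leptotene arrays. All spermatogonia arrays were above all pre-leptotene arrays, the fourth by little, and their order followed that of the spermatid markers, with array 2 highest and array 4 lowest in both. The fitted change was -2.62 ± 0.64 (adjusted p = 0.0491), and without spermatogonia arrays 1 and 2 it was -1.23 (adjusted p = 0.340). The call was also lost without spermatogonia array 1 or 2 alone (adjusted p = 0.147 and 0.103). It was lost as well without any 1 of the pre-leptotene arrays (-2.33 to -2.77, adjusted p = 0.0726 to 0.218). With the replicate number as a block, Usp44 (-2.96, adjusted p = 0.0115) and Usp50 (-2.77 ± 0.39, adjusted p = 0.00536) both fell, the latter from 6.77, 9.09, 7.64 and 6.75 to 4.06, 5.15 and 5.68. Whether RNA from spermatids had a part in these changes was not tested.

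From pre-leptotene to leptotene/zygotene 0 members rose and 0 fell, where 3.03% of all genes rose and 0.0764% fell. At an unadjusted p below 0.05 there were 5 members: Usp2, Usp4, Usp11, Usp16 and Usp46. The share of all genes below this looser threshold was not counted, so the number is not a result about the family. The closest to a change was Usp11, an X-linked gene that acts in DNA repair, which read 6.83, 7.06 and 6.79 in pre-leptotene and 5.56, 5.91 and 5.49 in leptotene/zygotene. Its groups did not overlap, and it fell past the test with quantile normalization (-1.37 ± 0.36, adjusted p = 0.049). Usp4, its autosomal paralogue, was higher instead, with 7.77, 7.33 and 7.35 against 8.30, 8.74 and 8.91, and rose past the test with the replicate number as a block (1.17 ± 0.26, adjusted p = 0.0208).

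At mid-pachytene the members split. Compared with leptotene/zygotene, 4 of 44 rose (9.09%, against 14.2% of all genes) and 6 fell (13.6%, against 15.2%), so both shares were near or below those of all genes. The rises were Usp2 (2.13 ± 0.42, adjusted p = 0.00172), Usp46 (1.94 ± 0.70, adjusted p = 0.043), Usp21 (1.35 ± 0.31) and Usp20 (1.13 ± 0.37). Usp2, which spares cyclin D1 and Mdm2 from breakdown, read 11.54, 11.85 and 12.44 in leptotene/zygotene and 13.70 and 14.44 in mid-pachytene, and it stayed between 13.69 and 14.40 in every later array. Usp46, which works with the WD-repeat protein Wdr48, read 6.14, 5.07 and 5.63 and then 7.93 and 7.18. Both mid-pachytene arrays lay above every leptotene/zygotene array for these genes, although for Usp46 the step was the less even. Usp46 did not pass without any 1 of the leptotene/zygotene arrays (adjusted p = 0.0502 to 0.127) or with no filter (adjusted p = 0.0762). Usp20 did not pass without leptotene/zygotene array 2 (0.72, adjusted p = 0.123).

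The falls were Usp27x (-2.23 ± 0.44), Usp33 (-1.99 ± 0.35, adjusted p = 0.000818), Usp9y (-1.67 ± 0.39), Usp22 (-1.46 ± 0.54, adjusted p = 0.047), Usp11 (-1.43 ± 0.41) and Usp14 (-1.39 ± 0.36). Of these, 3 are on the X or Y chromosome. Usp22 did not pass without any 1 of the leptotene/zygotene arrays (adjusted p = 0.0736 to 0.101) or with no filter (adjusted p = 0.0758). Usp14, which trims ubiquitin chains at the proteasome, read 10.24, 10.66 and 11.14 in leptotene/zygotene and 9.26 and 9.31 in mid-pachytene, and 1 of its 3 other probe sets showed no fall (0.03). The mid-pachytene arrays differed for some of these genes: Usp11 read 5.17 in array 1 and 3.28 in array 2, while Usp33 read 6.35 and 6.36. Without array 2, 2 calls were left, Usp2 and Usp33.

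At diplotene more members fell than rose, several histone-directed proteases among them. Of these proteases only Usp22 kept its call whichever single array was left out. Compared with mid-pachytene, 2 of 44 members rose (4.55%, against 6.98% of all genes) and 10 fell (22.7%, against 14.5%). Of the 10 members that act on histones H2A or H2B 4 fell, and the other 6 did not pass the test. Usp22, the ubiquitin protease of the SAGA coactivator complex, read 9.91 and 9.23 in mid-pachytene, 6.72 in the late pachytene array, and 6.37 and 5.16 in diplotene. That is the largest change among the members here (-3.81 ± 0.59, adjusted p = 0.000333), and no diplotene array came near a mid-pachytene one. Usp36, a nucleolar protease, read 6.51 and 6.56 and then 4.32 and 3.00, the last below log2 4 (-2.88 ± 0.61). Usp3, which acts on H2A, read 9.86 and 8.55 and then 7.64 and 6.25 (-2.26 ± 0.62). Diplotene array 2 was the lower for each of these 3 genes. Without it, with 1 diplotene array left, the change was -2.22 for Usp36 and -1.56 for Usp3, and both calls were lost. Usp3 also lost its call without mid-pachytene array 1 (-1.60).

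Usp27x, a paralogue of Usp22 on the X chromosome, fell as well. Both its diplotene arrays (3.55 and 3.50) were below log2 4, so that its fall can only be given as a bound, at least 0.95. The call of Usp27x was lost without mid-pachytene array 1 or either diplotene array. It was also lost with no filter (adjusted p = 0.0607), quantile normalization (adjusted p = 0.0578) and the mean over probe sets (adjusted p = 0.0606). The remaining falls were those of Usp9y (-2.72 ± 0.43), Usp9x (-2.27 ± 0.40), Usp31 (-2.25 ± 0.52), Usp28 (-1.66 ± 0.39), Usp5 (-1.20 ± 0.35) and Usp33 (-1.10 ± 0.38). For Usp31 another probe set gave 0.03. The rises were Usp20 (1.31 ± 0.41), which takes part in receptor recycling, and Usp45 (1.30 ± 0.38), which acts on the repair nuclease subunit ERCC1. These calls borrow their spread from all wild-type fractions: with the arrays of these 2 fractions alone 0 members passed, and without mid-pachytene array 1 or diplotene array 2 the count was 5.

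From diplotene to round spermatids 5 of 44 members rose (11.4%, against 12.5% of all genes) and 7 fell (15.9%, against 12%). The largest rises were sex-linked. Usp9x (2.61 ± 0.35, adjusted p = 8.1e-05), Usp9y (2.47 ± 0.37) and Usp11 (at least 1.68, its diplotene arrays being below log2 4) are described with the other sex-linked members. Usp25 (1.48 ± 0.46) and Usp31 (1.37 ± 0.45) rose too, and for Usp31 another probe set went the other way (-0.73).

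The falls in that step were Usp40 (-2.29 ± 0.44), Usp33 (at least 1.25 lower, its spermatid arrays being below log2 4), Usp10 (-1.44 ± 0.37), Usp37 (-1.25 ± 0.29), Usp53 (-1.21 ± 0.29), Usp45 (-1.14 ± 0.33) and Usp5 (-1.12 ± 0.30). Another probe set had the opposite sign for Usp45 (1.48) and for Usp53 (0.34). With the mean over probe sets neither passed (-0.14, adjusted p = 0.782, and -0.39, adjusted p = 0.438), and Usp37 was under the minimum (-0.80). Usp40, whose role is little known, read 8.82 and 8.29 in mid-pachytene, 8.80 in late pachytene, 8.43 and 6.93 in diplotene, and 5.91, 5.86, 5.39 and 4.42 in round spermatids. Usp10, which acts on p53 and on endosomal cargo, read 8.16 and 8.0, then 8.70, then 8.32 and 7.28, and 7.02, 6.16, 5.89 and 6.38 in round spermatids. Diplotene array 2 was already the lower for both genes, and without diplotene array 1 the number of calls went from 12 to 6.

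Over the whole course most of the family changed, in both directions. Between leptotene/zygotene and round spermatids 15 of 44 members rose (34.1%, against 30.6% of all genes) and 19 fell (43.2%, against 34.4%). The median change was -0.39 over the members and -0.10 over all genes. Quantile normalization moved the latter to 0.05 and the former to -0.30, with 14 rises and 18 falls. The groups of arrays did not overlap for any of the 34 members called. These members had been picked by the test on the same arrays, and the share over all called genes was not counted. The separation so adds no support of its own.

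**Figure D2:**
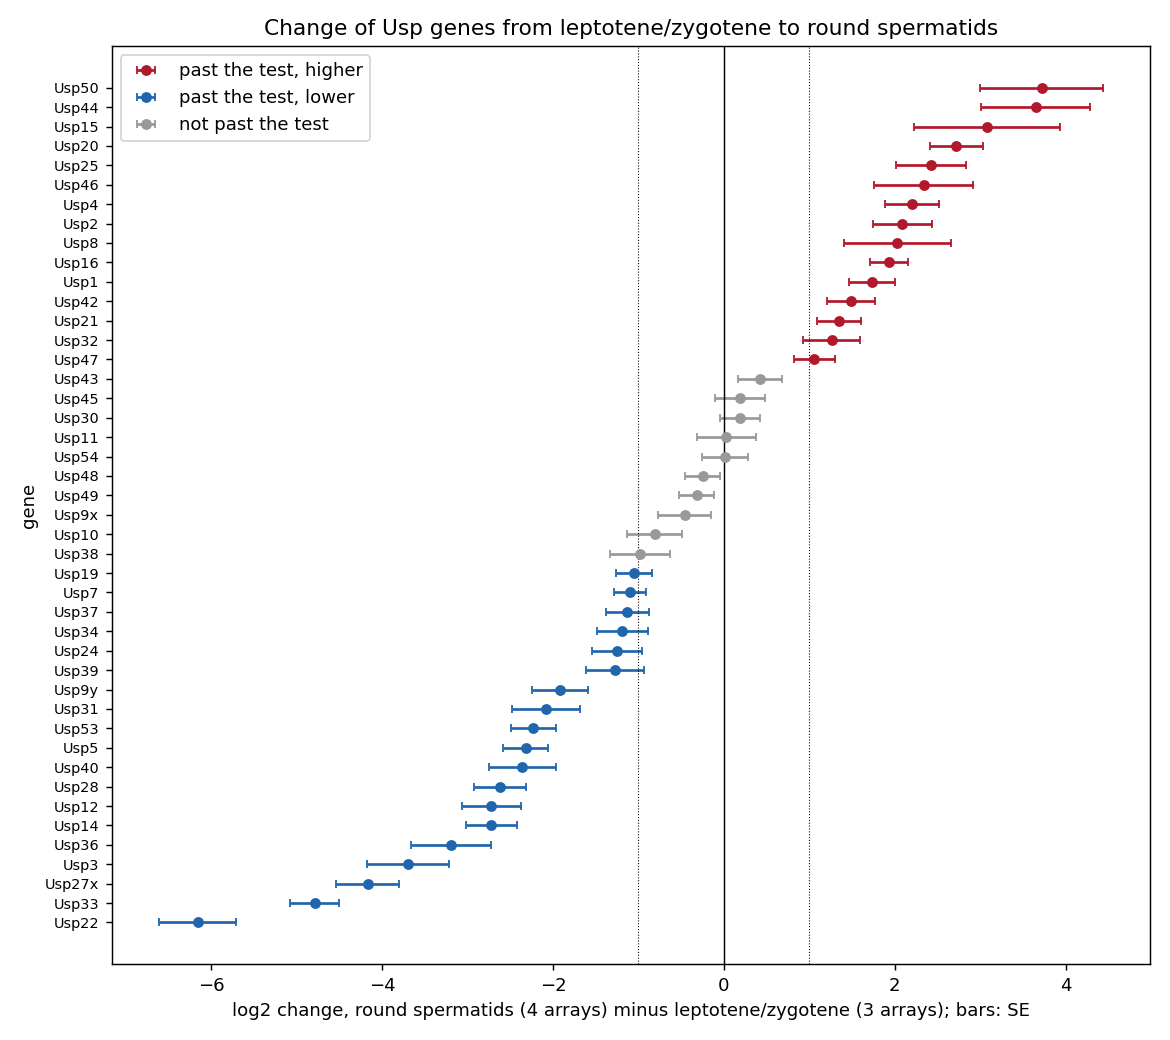
Fitted log2 change from leptotene/zygotene (3 arrays) to round spermatids (4 arrays) for the 44 Usp genes, with SE bars, in red or blue where the change passed the test and in grey where it did not. The values run from 3.72 (Usp50) to -6.16 (Usp22); dotted lines mark the minimum change of 1, and all but 10 genes passed.

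The largest rises were those of Usp50 (3.72 ± 0.72, adjusted p = 0.000203) and Usp44 (3.65 ± 0.64, adjusted p = 7.88e-05). Usp50 lies at chr2:126761050-126783460 and Usp44 at chr10:93819969-93859425 (GRCm38.p6). Usp44 read 6.58, 6.53 and 7.18 in leptotene/zygotene, 7.79 and 8.0 in mid-pachytene, 8.20 and 9.0 in diplotene, and 10.40, 10.50, 10.31 and 10.42 in round spermatids. The 4 spermatid arrays lay within 0.2 of each other and above all others except spermatogonia array 2. Usp50, a little-known member, read 4.90, 6.62 and 6.41 in leptotene/zygotene and 9.01, 9.61, 10.70 and 9.45 in spermatids, and scattered between 4.32 and 8.71 in pachytene and diplotene.

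Usp15 (3.08 ± 0.85), which is known from splicing and signalling, rose with more scatter: its leptotene/zygotene arrays read 5.32, 7.99 and 8.76 and its spermatid arrays 9.06, 10.70, 11.05 and 10.94. Array 1 was the lowest of its fraction in all 6 replicated fractions for Usp8, Usp14 and Usp15, which is 6.82% of the members against 4.87% of all genes. Usp4 (2.20 ± 0.32), the paralogue of Usp15, read 8.30, 8.74 and 8.91 and then 10.50, 10.82, 10.87 and 11.19. It was higher in each later fraction mean, and its groups lay well apart. The other named rises were Usp20 (2.72 ± 0.31), Usp25 (2.42 ± 0.41), Usp46 (2.34 ± 0.58) and Usp2 (2.09 ± 0.35).

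The largest fall was that of Usp22, from 10.84, 11.03 and 11.21 in leptotene/zygotene to 6.40, 4.31, 4.46 and 4.28 in spermatids (-6.16 ± 0.45, adjusted p = 9.25e-09). The gene lies at chr11:61151781-61175059. Spermatid array 1 stood about log2 2 above the others, and it was also the array with the highest spermatogonial marker median, at 5.58. Usp3 read 10.47, 10.03 and 10.39 and then 7.93, 6.90, 6.08 and 5.49 (-3.70 ± 0.48). Usp36 (-3.19 ± 0.47, with 2 of 4 spermatid arrays below log2 4), Usp14 (-2.72 ± 0.30) and Usp28 (-2.62 ± 0.30) fell as well. For Usp12 (-2.72 ± 0.35) the probe sets disagreed: another was higher in spermatids by 2.37, and the mean over its probe sets gave 0.00 (adjusted p = 0.998), so its direction depends on the probe set.

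The counts by known role are small and stand beside 30.6% of all genes that rose and 34.4% that fell. The 10 histone H2A and H2B proteases held 4 rises and 5 falls. Those that rose were Usp44, Usp46, Usp16 (1.93 ± 0.22) and Usp21 (1.35 ± 0.26), and those that fell were Usp22, Usp27x, Usp3, Usp36 and Usp12. The median over these 10 was -1.52. Of the 10 measured members that act in DNA damage and replication, 3 rose and 4 fell, with Usp4, Usp1 (1.73 ± 0.27) and Usp47 (1.06 ± 0.24) higher and Usp28, Usp24 (-1.25 ± 0.29), Usp37 (-1.13 ± 0.25) and Usp7 (-1.10 ± 0.19) lower. Both measured proteases of free ubiquitin chains and the proteasome fell, Usp14 and Usp5 (-2.32 ± 0.26). Of the 7 members of endosomes and receptor traffic, 3 rose (Usp20, Usp2 and Usp8) and 2 fell (Usp33 and Usp9y). The histone group so includes both the largest fall and the second largest rise of the family.

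Other genes of the ubiquitin system changed in both directions in this comparison, to be read against the same 30.6% and 34.4% of all genes. Of 33 measured deubiquitinases of other families 7 rose and 13 fell, among them Stambpl1 (5.23 ± 0.52), Mindy4 (3.74 ± 0.40), Uchl1 (-6.87 ± 0.55), which is known as a spermatogonial protein, Mysm1 (-5.36 ± 0.37), which acts on H2A, and Brcc3 (-4.81 ± 0.36). Of 8 partner subunits of Usp proteins 3 rose and 3 fell: Wdr48, the activator of Usp1, Usp12 and Usp46, rose (1.85 ± 0.39), and so did Atxn7l1 (3.88 ± 0.42), while Eny2, a subunit of the SAGA module that holds Usp22, fell (-2.41 ± 0.21). Of 18 ubiquitin-activating and -conjugating enzymes 1 rose, Ube2j1 (1.44 ± 0.43), and 8 fell, led by Ube2g1 (-6.08 ± 0.62) and Uba6 (-5.07 ± 0.51). Of 15 ubiquitin ligases of chromatin and meiosis 2 rose and 8 fell, with Mdm2 (2.83 ± 0.38) up and Ubr2 (-5.50 ± 0.48) and Ccnb1ip1 (-4.68 ± 0.20) down.

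Of 15 pairs of related members with both measured, 5 held 1 gene that rose and 1 that fell between leptotene/zygotene and round spermatids. That is 33.3% of these pairs, near the 30.1% of all 946 pairs of measured members that did so, related or not. The pair Usp20 and Usp33, both known for binding the VHL protein and for receptor recycling, also had opposite calls at mid-pachytene and at diplotene. At each of these steps 1 of 15 related pairs did so (6.7%), against 2.5% and 2.1% of all pairs. At mid-pachytene Usp20 did not pass with the mean over probe sets (0.80). At diplotene its call was lost without any 1 array of the 2 fractions. That of Usp33 was lost there without either mid-pachytene array or diplotene array 2, and with quantile normalization (-0.77, adjusted p = 0.17). Usp20 lies at chr2:30982279-31022655 and Usp33 at chr3:152346184-152393617. Usp20 read 7.83, 6.77 and 8.20 in leptotene/zygotene, 9.39 in early pachytene, 9.04 and 8.42 in mid-pachytene, 10.15 in late pachytene, 10.23 and 9.86 in diplotene, and 10.14, 10.61, 10.07 and 10.45 in round spermatids. Usp33 read 8.0, 8.64 and 8.38, then 6.97, 6.35 and 6.36, 6.27, 5.59 and 4.91, and 3.48, 3.45, 3.80 and 3.45 in the same order. Every array from early pachytene on was above all leptotene/zygotene arrays for Usp20 and below them for Usp33, which ended below log2 4, at least 4.34 lower.

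Usp25 and Usp28, related proteases of which Usp28 is known from the DNA damage checkpoint, parted later. Usp25 read 4.38, 3.70 and 4.44 in leptotene/zygotene, near the detection level, 5.48 and 4.99 in mid-pachytene, 5.44 and 4.80 in diplotene, and 7.42, 6.84, 6.36 and 5.76 in round spermatids. Usp28 read 9.73, 10.56 and 10.06, then 9.35 and 9.09, 7.56 and 7.55, and 7.35, 7.80, 7.57 and 7.27. For Usp28 the drop was complete by diplotene, while Usp25 was highest in spermatids.

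In the pair of Usp42 and Usp36, related proteases, the former rose by 1.49 ± 0.28. It read 10.60, 11.03 and 11.37 in leptotene/zygotene and 11.89, 12.60, 12.78 and 12.72 in spermatids. Usp47 (1.06 ± 0.24) and Usp7 (-1.10 ± 0.19), which acts on p53 and Mdm2, made a pair with changes close to the minimum, and each has another probe set with the opposite sign. Usp47 fell short of that minimum in some alternatives (0.92 with quantile normalization, adjusted p = 0.00185). The pair Usp46 and Usp12 counts among the 5 but rests on the probe set of Usp12 described above. In 3 pairs both genes passed in the same direction: Usp22 with Usp27x fell, and Usp4 with Usp15 and Usp2 with Usp21 rose. In the remaining 7 pairs 1 gene passed.

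**Figure D3:**
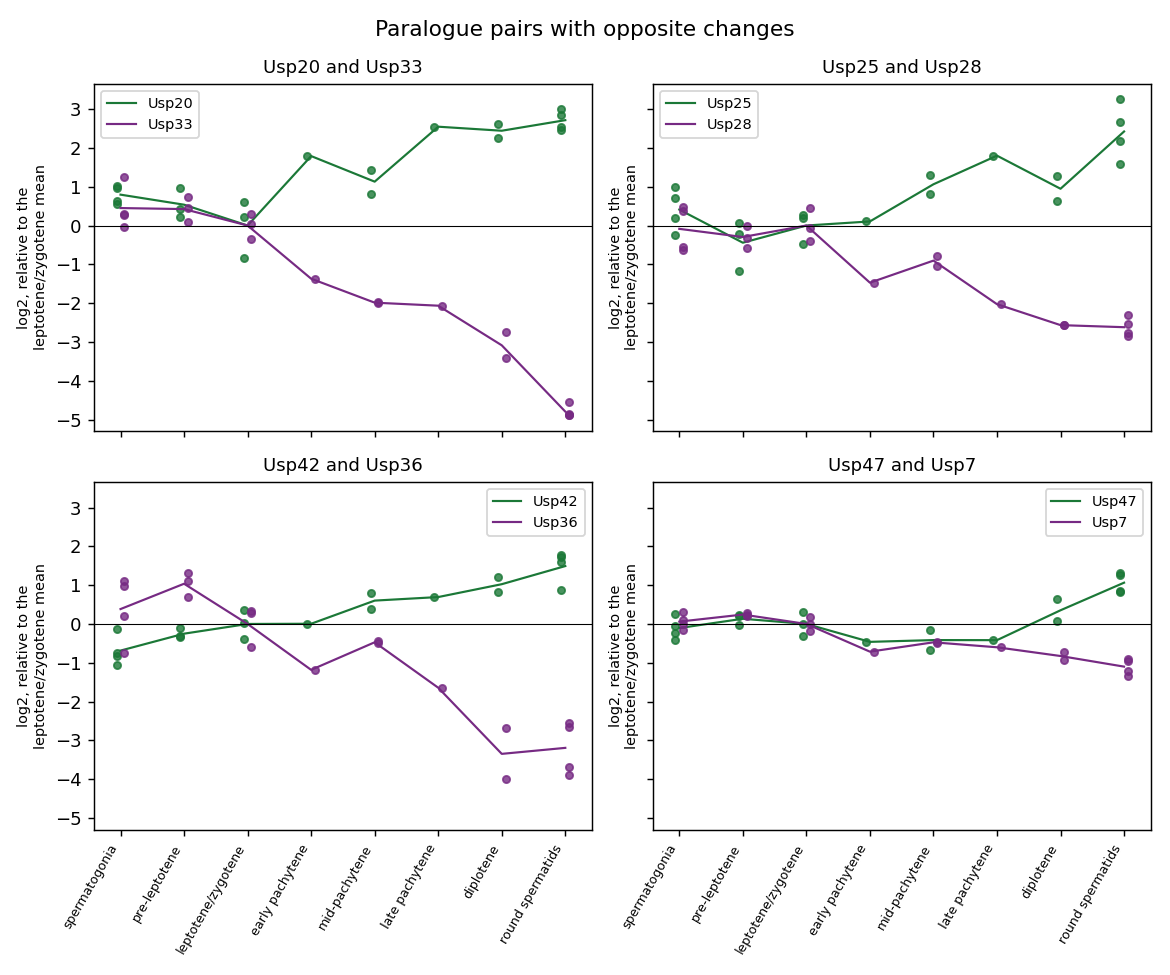
Log2 intensity of 4 paralogue pairs in the 20 wild-type arrays (points), relative to each gene's leptotene/zygotene mean, with lines through the fraction means. The green gene of each pair ends above and the purple gene below 0 in round spermatids, by 2.72 and -4.79 for Usp20 and Usp33.

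All 4 measured sex-linked members had fallen by diplotene, and 3 of them rose again in spermatids on the probe sets used, Usp9x on no other. The X and Y chromosomes are silenced as a whole in pachytene spermatocytes, and 419 X-linked genes had a median change of -1.37 to mid-pachytene, -1.02 from there to diplotene and 0.29 from diplotene to round spermatids. The medians of the 4 members in these steps were -1.55, -1.85 and 2.35, and those of the autosomal members were 0.00, 0.11 and -0.25. All these medians use group means even below log2 4, where for Usp11 and Usp27x at diplotene only bounds hold. The 2.35 also rests in part on Usp9x, whose rise was seen on a single probe set, so its size is uncertain. The sequences upstream of these genes are shown because all fell and not all rose again. Each run is the 250 bases before the annotated start, 5′ to 3′ on the gene's strand, from RefSeq for GRCm38.p6, with every CG dinucleotide in capitals. The run of Usp11 spans chrX:20703659-20703908 (+), that of Usp9y chrY:1459783-1460032 (-) and that of Usp27x chrX:7375831-7376080 (-).
Usp11: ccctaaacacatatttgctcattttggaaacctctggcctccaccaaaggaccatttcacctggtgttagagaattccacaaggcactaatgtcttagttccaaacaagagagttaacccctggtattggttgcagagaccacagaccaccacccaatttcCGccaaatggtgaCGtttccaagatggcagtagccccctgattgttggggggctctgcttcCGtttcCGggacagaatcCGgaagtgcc
Usp9y: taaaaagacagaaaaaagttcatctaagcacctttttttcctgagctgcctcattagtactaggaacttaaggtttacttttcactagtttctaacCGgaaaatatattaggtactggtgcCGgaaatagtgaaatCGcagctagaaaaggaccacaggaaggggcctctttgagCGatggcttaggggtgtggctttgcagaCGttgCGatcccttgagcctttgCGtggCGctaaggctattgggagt
Usp27x: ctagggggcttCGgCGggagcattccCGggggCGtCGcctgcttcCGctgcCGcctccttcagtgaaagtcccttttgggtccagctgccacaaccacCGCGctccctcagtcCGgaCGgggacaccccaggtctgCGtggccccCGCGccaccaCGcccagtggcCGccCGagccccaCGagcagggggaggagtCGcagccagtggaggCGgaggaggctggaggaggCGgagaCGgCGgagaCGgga
The upstream run of Usp27x, the gene that did not rise again, holds 24 CG dinucleotides and 72.4% G or C. Those of Usp11 and Usp9y, which did, hold 5 and 8, with 50% and 44.8%. Over 32851 upstream runs of this length the medians were 6 and 52.4%. Over the 12 members with such a run that rose from leptotene/zygotene to round spermatids they were 25.5 and 70.2%. They were 26 and 66.0% over the 13 that fell, and 12 and 56.4% over the 8 not called. The run of Usp27x is thus near the medians of members that rose and of members that fell. With 3 genes the comparison of Usp27x with Usp11 and Usp9y is a description, and no window of Usp9x was used here.

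Usp9x, which acts on endosomal and signalling proteins, read 8.76, 8.96 and 9.26 in leptotene/zygotene, 7.82 in early pachytene, 8.54 and 7.85 in mid-pachytene, 6.0 in late pachytene, 6.36 and 5.48 in diplotene, and 8.74, 8.49, 8.20 and 8.70 in round spermatids. On this probe set, its brightest, the spermatid arrays lay just below all leptotene/zygotene arrays, with a difference of -0.46, below the minimum. The rise was seen on no other: a second probe set, at a mean of 6.97 in leptotene/zygotene, was at 3.73 in diplotene and 3.52 in spermatids. All 6 others had means below log2 4 in both late fractions, and the mean over all 7 changed by 0.40 (adjusted p = 0.132) from diplotene to spermatids.

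Usp9y, its homologue on the Y chromosome, read 9.65, 9.23 and 8.90, then 7.85, 8.35 and 6.83, 5.34, 4.95 and 4.79, and 7.52, 7.38, 7.40 and 7.05. It rose again in part, to 1.92 ± 0.33 below leptotene/zygotene (adjusted p = 6.44e-05). The genes are close in sequence, and whether their probe sets cross-hybridise was not tested. Usp11 read 5.56, 5.91 and 5.49, then 5.30, 5.17 and 3.28, 3.04, 3.45 and 3.45, and 5.25, 5.77, 6.18 and 5.54, so its spermatid arrays overlapped the leptotene/zygotene ones (0.03).

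Usp27x read 7.13, 7.44 and 6.96, then 4.44, 5.68 and 4.21, 3.28, 3.55 and 3.50, and 3.74, 3.03, 2.61 and 2.65. All arrays from late pachytene on were below log2 4, and its spermatid level was at least 3.18 below that of leptotene/zygotene. The X-linked Usp26 did not pass the filter, with wild-type values of at most 3.86. It read 5.30 in the Spo11-/- spermatogonia array and 3.28 and 3.99 in the other Spo11-/- arrays, a single value with no replicate.

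**Figure D4:**
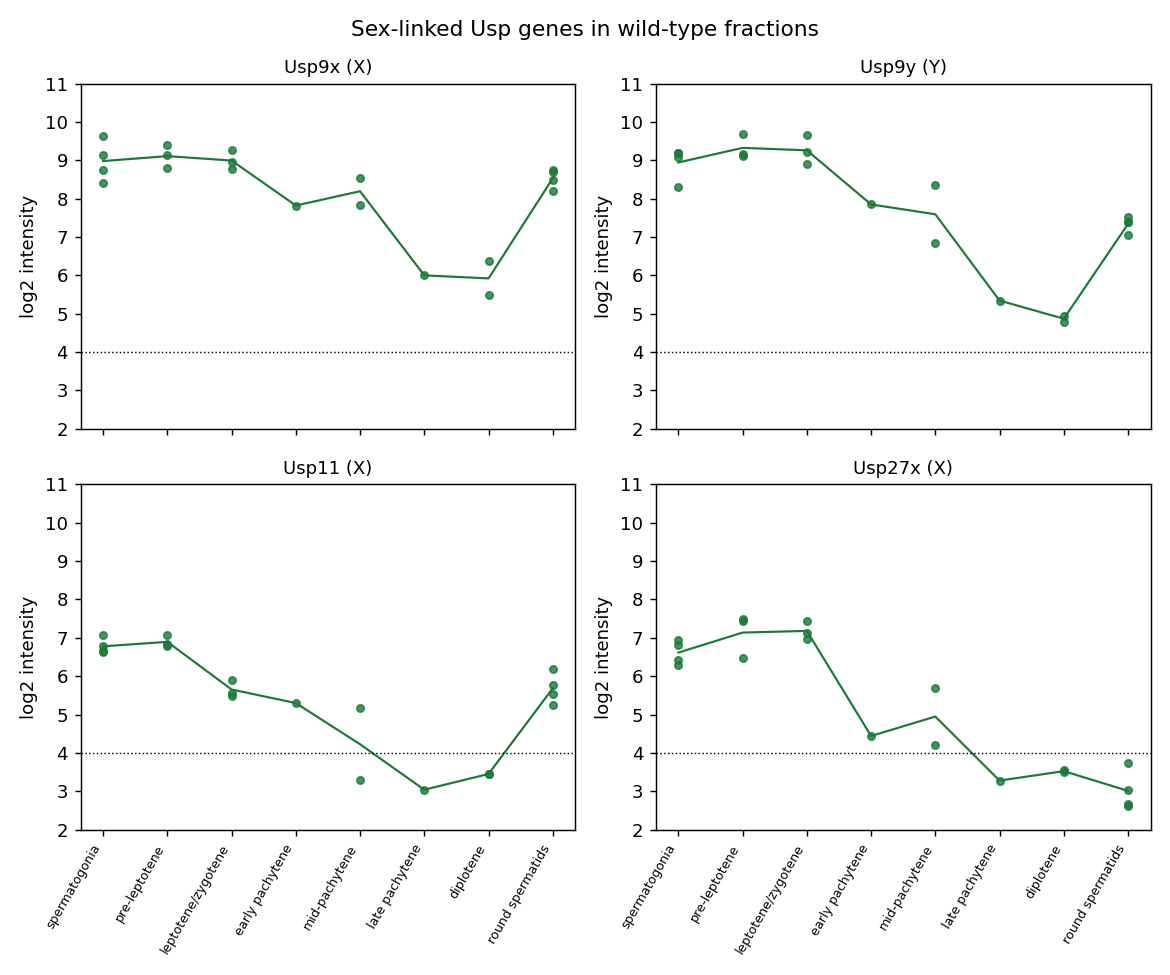
Log2 intensity of the 4 measured sex-linked Usp genes in the 20 wild-type arrays by fraction (points), with lines through the fraction means and log2 4 dotted. All 4 are lower in late pachytene and diplotene than in leptotene/zygotene, and Usp9x, Usp9y and Usp11 are higher again in round spermatids, while Usp27x stays below log2 4.

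In the Spo11-/- arrays most Usp transcripts did not pass the test of a difference. With fraction and genotype fitted together over 13 arrays of the 3 early fractions, 1 of 44 members was higher in Spo11-/- (2.27%, against 1.63% of 11980 genes) and 3 were lower (6.82%, against 10.0%). Usp44, Usp50 and Usp2 were lower and Usp38 was higher. Usp44 differed most (-3.26 ± 0.66, adjusted p = 0.00656). It read 4.48, 3.60 and 4.02 in the Spo11-/- spermatogonia, pre-leptotene and leptotene/zygotene arrays, each below every wild-type array, of which the lowest read 5.63. Without the Spo11-/- spermatogonia array the value was -2.68 (adjusted p = 0.0616).

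Usp50 read 4.16, 3.84 and 4.07 in the Spo11-/- arrays (-2.17 ± 0.58, adjusted p = 0.0261), against 6.75 to 9.09 in wild-type spermatogonia, 4.06 to 5.68 in pre-leptotene and 4.90 to 6.62 in leptotene/zygotene. Within each fraction the Spo11-/- array was the lowest, by 0.2 only in pre-leptotene. Without the Spo11-/- spermatogonia array Usp50 did not pass (-1.51, adjusted p = 0.181), nor without the leptotene/zygotene one (-2.30, adjusted p = 0.0872) or with no filter (adjusted p = 0.0528). Usp2 read 10.76, 9.87 and 10.45 (-1.12 ± 0.32, adjusted p = 0.0342), also the lowest of each fraction. It did not pass without any 1 of the Spo11-/- arrays (-0.94 to -1.27, adjusted p = 0.0754 to 0.174), without any 1 of 4 wild-type arrays (spermatogonia 1, pre-leptotene 2 or 3, leptotene/zygotene 2) or with no filter (adjusted p = 0.0556). All 3 genes that were lower are genes that rose from leptotene/zygotene to round spermatids, where 30.6% of all genes rose. The share that rose among all genes lower in Spo11-/- was not counted, so this is not a trait particular to these members. The wild-type levels of the 3 genes stood beside spermatid markers at 8.24 to 13.19, against 2.98 to 3.16 in Spo11-/-. The median of 10 late prophase markers was 7.57 to 11.35 in the wild-type arrays of these fractions and 3.58 to 4.34 in Spo11-/-. Whether cells of later stages had a part in the 3 differences was not tested.

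Usp38, which acts in interferon and NF-kappaB signalling, read 7.86, 8.56 and 7.47 in Spo11-/-, against 6.75, 7.04, 8.20 and 7.05 in wild-type spermatogonia, 6.19, 6.66 and 7.06 in pre-leptotene and 6.15, 6.76 and 6.29 in leptotene/zygotene (1.19 ± 0.33, adjusted p = 0.0293). The Spo11-/- array was above all wild-type arrays in pre-leptotene and leptotene/zygotene, and below spermatogonia array 3. The highest value came from the pre-leptotene array with macrophage and leukocyte markers at 7.51. In wild-type spermatogonia arrays 1 to 4 these markers stood at 7.44, 6.61, 5.02 and 6.77, so Usp38 was highest there where they were lowest. Usp38 did not pass without the Spo11-/- pre-leptotene array (0.83, adjusted p = 0.172) or without the Spo11-/- leptotene/zygotene array (1.24, adjusted p = 0.0985). Whether leukocyte RNA had a part was not tested.

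Within single fractions, with 1 Spo11-/- array and no test, members were counted that lay past all wild-type arrays of the fraction by at least 1 on the log2 scale. In spermatogonia 0 members lay above (0.659% of all genes) and 2 below (9.27%), Usp44 and Usp50. In pre-leptotene 2 lay above (7.44%), Usp25 and Usp38, and 3 below (9.47%), Usp27x, Usp42 and Usp44. In leptotene/zygotene 0 lay above (1.5%) and 4 below (11.5%), Usp2, Usp4, Usp10 and Usp44. Usp25 stands out by size, with 8.15 in the Spo11-/- pre-leptotene array against 3.01 to 4.23 in wild type and 4.07 and 4.57 in the other Spo11-/- arrays. Its high value lay in an array where 12 of 13 leukocyte markers were at or above log2 4, with a median of 7.51. In wild-type spermatogonia arrays 1 and 4, with 11 and 12 of 13 and medians of 7.44 and 6.77, Usp25 read 4.88 and 5.16. The peritubular and stromal markers had a median of 7.59 in that Spo11-/- array, against 3.27 and 3.94 in the other Spo11-/- arrays. The part of such cells was not tested. By this distance of at least 1, only Usp44 lay below wild type in all 3 fractions, while Usp50 and Usp2 were below by less in some.

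The Spo11-/- difference was larger for a protease outside the family. Otub2, a deubiquitinase of the ovarian tumour family, was lower (-5.98 ± 0.75, adjusted p = 0.000382), followed by Mindy4 (-1.58 ± 0.45), while Cyld was higher (1.03 ± 0.31). With the 33 measured deubiquitinases of other families this makes 1 higher and 2 lower, where 1.63% of all genes were higher and 10.0% lower. Of the 18 conjugating and activating enzymes 1 was lower, Ube2j1 (-1.43 ± 0.42), and 0 of the 8 partner subunits and 0 of the 15 ligases passed. Otub2, Mindy4 and Ube2j1 were, like Usp44, Usp50 and Usp2, genes that rose towards round spermatids. As said above, the share of such genes among all genes lower in Spo11-/- was not counted.

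**Figure D5:**
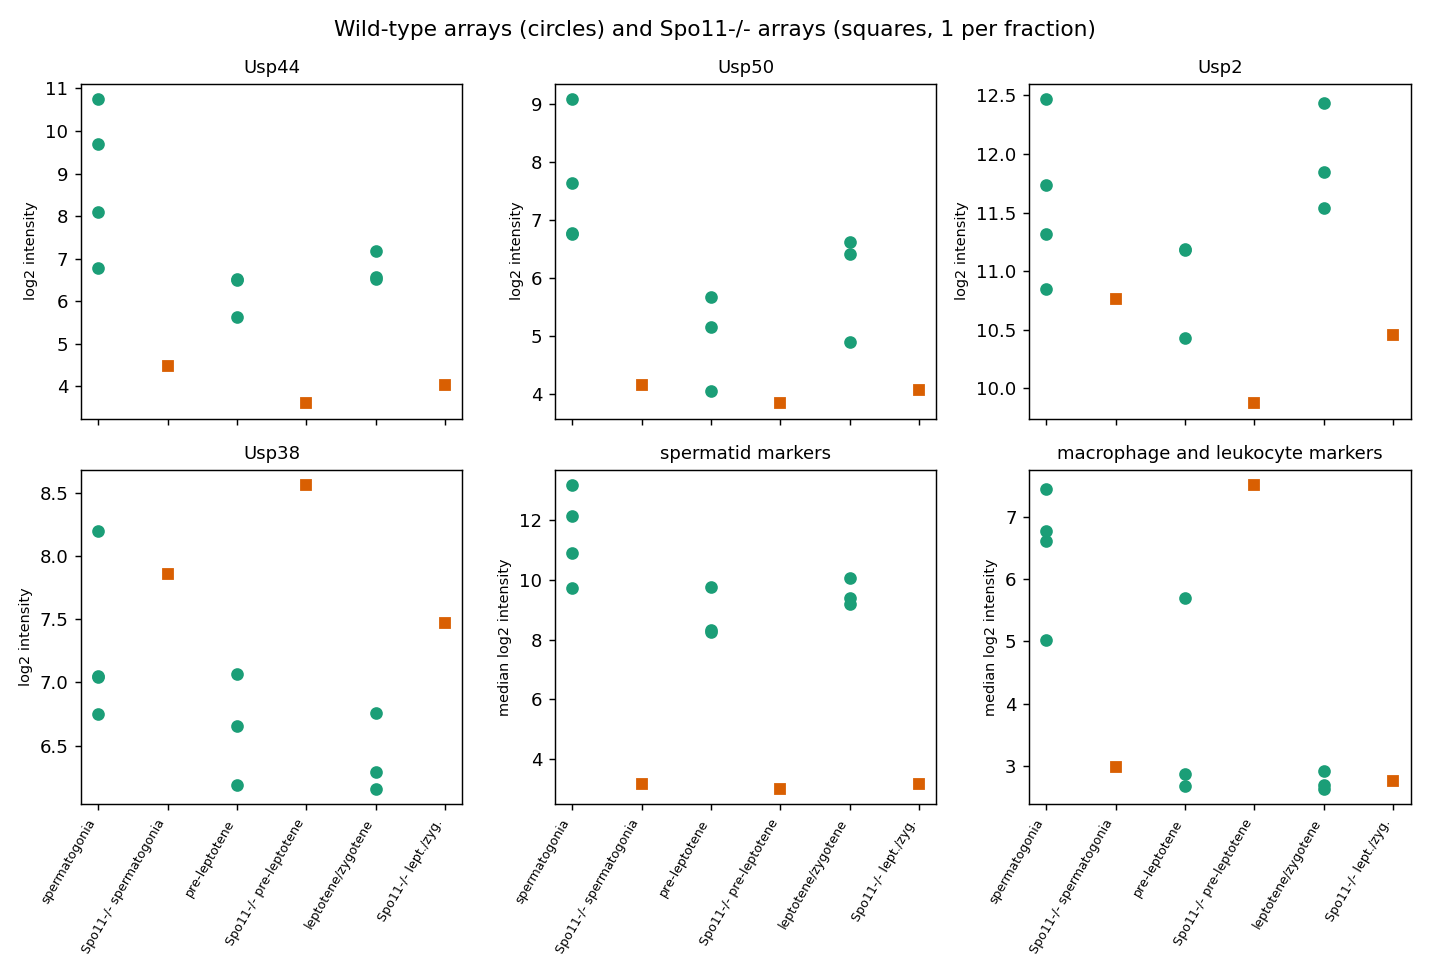
Log2 intensity of Usp44, Usp50, Usp2 and Usp38 in the wild-type (circles) and Spo11-/- (squares) arrays of the 3 early fractions, with the median log2 intensity of spermatid markers and of macrophage and leukocyte markers in the same arrays. Usp44 and the spermatid markers are lower in every Spo11-/- array than in any wild-type array, and Usp38 and the leukocyte markers are highest in the Spo11-/- pre-leptotene array. Among the wild-type spermatogonia arrays Usp38 is highest (8.20) where the leukocyte markers are lowest (5.02).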

How the data were processed

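RNA of sorted cells was labelled from oligo-dT primers and hybridised to Affymetrix arrays, per the labels' protocols. The deposited values are linear intensity per probe set, which the authors made with GCRMA, per the submitters' processing notes; its version and settings are not given in the sources used here. Array medians ran from 10.63 to 12.56. Deposited intensity was taken to log2(value + 1). Of 45037 probe sets, 34945 had 1 gene symbol in the platform annotation and 932 had several; symbols came from RefSeq (GRCm38.p6) through Entrez identifiers for 34741.

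Changes were fitted with limma 3.58.1 (R 4.3.3): a mean per fraction over the 20 wild-type arrays, so that all fractions with replicates share 1 spread, and fraction plus genotype for Spo11-/-, which takes the 3 Spo11-/- arrays as independent. P-values were adjusted over all genes tested. They reflect array-to-array spread only, and precision is limited by how few arrays a group has. A group with all arrays below log2 4 has only a bound, the mean of the other group against 4. The fits were tested on simulated data.

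The members, the lists of roles, paralogues, pathway genes and markers, and the tests were chosen with earlier results of these data known. Named were all called members where at most 10 were called in a direction and otherwise the 8 largest, all sex-linked members, pairs called in opposite directions, up to 3 genes per pathway list, and Spo11 (the members with the highest and lowest mean, also in the rule, are left out since levels of probe sets are not compared); Usp1, Usp8, Usp16, Usp21, Usp24, Usp37, Usp5 and Usp9y are also named in the counts by role, and Usp26 and the genes of the single-fraction counts after their values were seen. None of the 4 ubiquitin genes listed had a probe set of its own. Of the 48 Usp genes, 36 had an upstream window.

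The labels do not say that replicate numbers mark a shared animal or day. Between spermatogonia and pre-leptotene, arrays of the same number deviated together (correlations over genes of 0.53, 0.65 and 0.23), so the paired value stands beside that result. The lowest correlation was 0.08 between pre-leptotene and leptotene/zygotene and 0.03 between leptotene/zygotene and round spermatids, and the other comparisons have 2 pairs each. Alternatives covered the filter, the probe set, the pseudocount, quantile normalization, median centring, eBayes settings, the fold minimum, the replicate block, 2 fractions alone and leaving out arrays.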

Additional observations from a re-analysis of the deposited data

Results flagged for a closer look

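In fractions of 4 arrays, the array farthest from the others was looked for in each member, and 8 of 88 groups held one by Dixon's criterion, which by chance marks about 5% of groups. The share over all genes in the same arrays was not counted, so the number is not a result about the family. In round spermatids, Usp22 read 6.40 in array 1 against 4.28 to 4.46 in the others. Usp39, a splicing protein, read 10.39 in array 1 against 9.69 to 9.70, and Usp33 read 3.80 in array 3 against 3.45 to 3.48, all below log2 4. In spermatogonia, array 3 was the highest for Usp19 (11.87 against 11.55 to 11.57) and for Usp49 (5.29 against 4.92 to 4.95). Spermatogonia array 2 was the lowest for Usp40 (6.53 against 7.13 to 7.18) and for Usp9y (8.31 against 9.08 to 9.19). Usp43 read 4.48 in spermatogonia array 4 against 3.93 to 4.01.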

How the results depend on the processing

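The count of members that changed between leptotene/zygotene and round spermatids stayed between 26 and 36 under all alternatives run. Leaving out 1 array at a time gave 0 to 2 calls from spermatogonia to pre-leptotene, 2 to 10 to mid-pachytene, 5 to 10 to diplotene, 6 to 13 from diplotene to spermatids and 1 to 4 for Spo11-/-; the last was 1 without the Spo11-/- spermatogonia or leptotene/zygotene array. The single call from spermatogonia to pre-leptotene became 0 with no filter, with quantile normalization, with median centring, with the 2 fractions alone, and without spermatogonia arrays 1 and 2. From pre-leptotene to leptotene/zygotene 1 call appeared with quantile normalization. With the replicate block the counts were 2 from spermatogonia to pre-leptotene, 1 from there to leptotene/zygotene and 16 to mid-pachytene, the last with 2 pairs only; the other paired counts were within 1.5 times. From mid-pachytene to diplotene 0 passed with the 2 fractions alone. For Spo11-/- the count was 2 with no filter and 8 with no fold minimum. Usp12 between leptotene/zygotene and spermatids went to 0.00 with the mean of all probe sets (adjusted p = 0.998). Chosen after seeing the data, leaving out the pre-leptotene arrays with leukocyte RNA, or the spermatogonia arrays of either genotype, gave 3 calls for Spo11-/- each. Of the values of single members under alternatives, 1057 kept direction and call, 140 kept direction only and 1 did not keep its direction. No paired analysis of Spo11-/- was run, since its arrays carry no replicate number. The causes were not tested.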
